A study of Danio rerio with 6 samples.

Results

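The matrix metalloproteases (MMPs), the ADAM and ADAMTS proteases and the tissue inhibitors of metalloproteases (TIMPs) were examined in whole zebrafish larvae with and without *panx1a*. The genes were chosen by symbol alone, as every gene of the count files whose symbol starts with mmp, adam or timp and a number, or with adamts. This gave 23 of the 15336 genes listed, 8 of them MMPs, 6 ADAMs, 5 ADAMTS proteases and 4 TIMPs. RefSeq (GRCz12tu) lists 69 protein-coding genes under symbols of this form, and those with no row among the 23 were not analysed here.

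Untreated larvae of the TL strain, 6 days post fertilization (dpf), were compared by RNA-seq in 2 groups. The *panx1a*-/- larvae (n = 3 libraries) carry a TALEN-induced frameshift deletion in the pannexin 1a gene, which codes for an ATP-permeable membrane channel, in a line bred from a single founder fish. The TL larvae (n = 3 libraries) are wild type and serve as controls. The number of larvae per library, and whether libraries came from separate clutches, is not given in the sources used here, so p-values measure only the spread between these libraries.

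MMPs are zinc-dependent proteases that cut collagens and other proteins of the extracellular matrix, and most are made as inactive precursors. ADAMs sit in the cell membrane and release the outer parts of other membrane proteins, such as Notch receptors and growth factor precursors, while ADAMTS proteases are secreted and act on proteoglycans and procollagens. TIMPs are small secreted proteins that bind to the catalytic site of these enzymes. In larvae of this age the families are known from skin, fin, cartilage, blood vessels and leukocytes.

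Reads assigned to genes numbered 13054759 to 17776115 per *panx1a*-/- library and 17349457 to 21472044 per TL library. As a check of the labels, *panx1a* itself had 22, 17 and 13 counts in the *panx1a*-/- libraries, against 110, 114 and 147 in the TL libraries. Among reads with a unique alignment, 51.6%, 48.4% and 59.4% fell outside annotated genes in the *panx1a*-/- larvae, against 42.9%, 30.2% and 30.7% in the TL larvae (2-sided exact permutation test, p = 0.1, the smallest that 3 libraries against 3 allow). Some marker lists of tissues differed between the genotypes as well. By the test described below, 7 of 9 retinal markers were called higher in *panx1a*-/- larvae, beside 9.88% of all genes tested. Called lower were 7 of 12 exocrine pancreas and gut markers, 6 of 12 epidermal markers and 5 of 12 skeletal muscle markers, beside 11.8% of all genes. The liver list, with 1 of 10 markers called lower (10%), was not above that share. Without *panx1a*-/- replicate 1, *panx1a*-/- replicate 3, TL replicate 2 or TL replicate 3, the retinal calls numbered 0 and the epidermal calls 0 or 1. Those fits called few genes at all, 0.00776% to 0.294% of all genes higher and 0.00771% to 0.805% lower. The epidermal markers had summed levels between 2485 and 8041 CPM (counts scaled to the TMM-normalized library size, per mega-read) in the *panx1a*-/- libraries and between 18892 and 44669 CPM in the TL libraries, and the pancreas and gut markers between 919 and 1050 CPM in the *panx1a*-/- libraries and between 2182 and 13663 CPM in the TL libraries. In whole larvae, fewer cells of a type and less RNA per cell cannot be told apart.

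Of the 23 genes, 15 passed edgeR's filter on low counts and were tested. By edgeR's quasi-likelihood (QL) test at a Benjamini-Hochberg adjusted p-value below 0.05, 0 of the 15 were called in either direction, against 21.6% of all 12797 genes tested. At an unadjusted p-value below 0.05 there were 2, *adam17a* and *mmp2*, against 5586 of all 12797 genes tested. DESeq2 called 1 higher, *adam17a*, beside 15.3% of all genes, and gave no adjusted p for *mmp9*. The QL test blocked by replicate number called 1 lower, *mmp2*, beside 16.7% of all genes. With edgeR's exact test 0 of the 15 were called, beside 13.3% of all genes higher and 17.5% lower. Limma-voom also called 0, beside 10.4% of all genes higher and 11.8% lower. The median log2 fold change of the 15 was −0.10, beside −0.063 over all genes tested, with 5 above 0 and 10 below. In 2 of the 15 the CPM ranges of the genotypes were apart, again *adam17a* and *mmp2*, against 47.5% of all genes tested. A gene that misses the threshold is not shown to be equal in both genotypes, and the 95% intervals of the fold changes below give the sizes that the data leave possible.

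**Figure D1:**
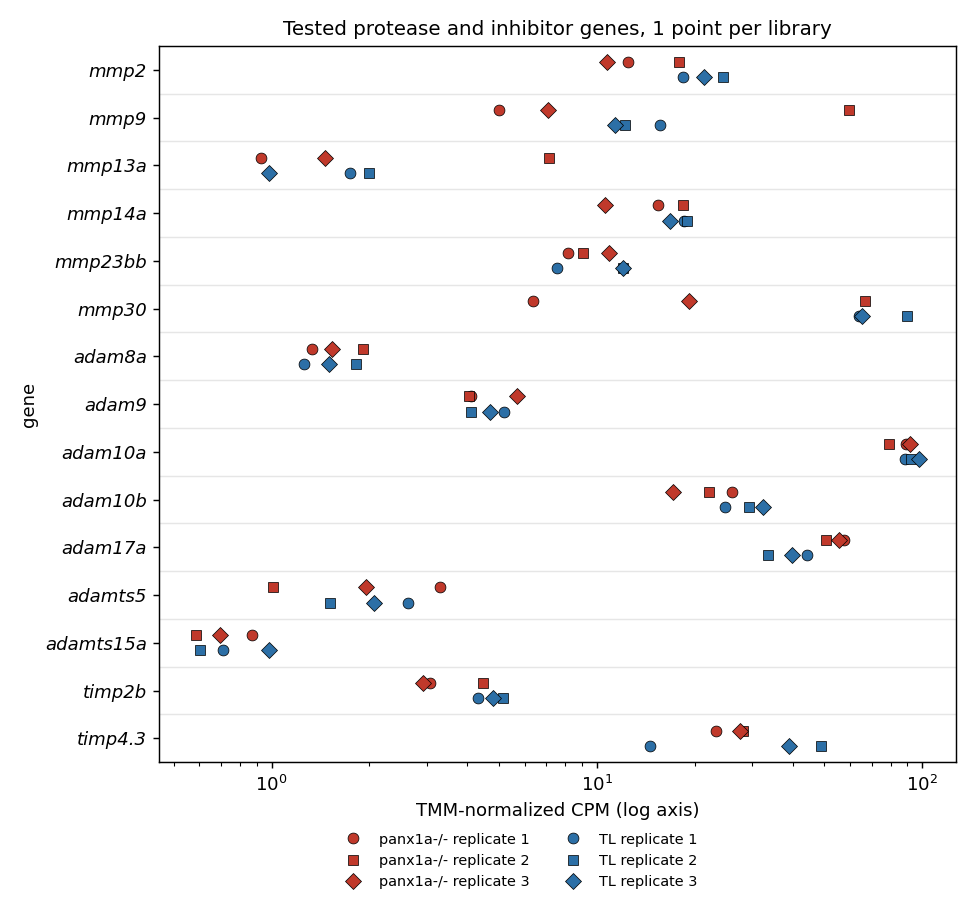
TMM-normalized CPM (log axis) of the 15 tested protease and inhibitor genes, 1 point per library, with the 3 *panx1a*-/- libraries in red above the 3 TL libraries in blue. For *mmp9*, *mmp13a* and *mmp30* the red square of *panx1a*-/- replicate 2 lies far to the right of the other red points, at 59.7, 7.12 and 66.5 CPM.

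*mmp9*, *mmp13a* and *mmp30* had the widest spread between the *panx1a*-/- libraries. *mmp9* codes for gelatinase B, which cuts denatured collagen and is known from leukocytes and wounded epithelia. Its levels were 4.99, 59.7 and 7.09 CPM in the *panx1a*-/- libraries (replicates 1, 2 and 3), against 15.7, 12.2 and 11.4 CPM in the TL libraries. The *panx1a*-/- group thus held the highest value and also the lowest pair, with TL between them. Its log2 fold change was 0.88 (standard error, SE, 0.85, 95% interval −1.10 to 2.85, adjusted p = 0.441 by edgeR QL). Without *panx1a*-/- replicate 2 its sign turned, with a log2 fold change of −1.11 (SE 0.26, adjusted p = 0.0225 by edgeR QL), and over all the left-out libraries the adjusted p ranged up to 0.613.

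*mmp13a*, a collagenase gene that is also known from leukocytes and injured tissue, showed the same library on top. It had 16, 134 and 21 counts in the *panx1a*-/- libraries and 32, 33 and 19 counts in the TL libraries, or 0.928, 7.12 and 1.46 CPM in the *panx1a*-/- libraries against 1.75, 1.99 and 0.981 CPM in the TL libraries. The other *panx1a*-/- libraries lay below or inside the TL range. The fitted log2 fold change was 1.03 (SE 0.74, 95% interval −0.70 to 2.76, adjusted p = 0.305 by edgeR QL), and −0.40 without *panx1a*-/- replicate 2 (adjusted p = 0.499).

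*mmp30* is separated from *mmp13a* by 1 protein-coding gene in RefSeq. Its levels were 6.38, 66.5 and 19.3 CPM in the *panx1a*-/- libraries, against 63.8, 90.0 and 65.4 CPM in the TL libraries. Here *panx1a*-/- replicate 2 lay within the TL range, and the other two *panx1a*-/- libraries lay below it. In the fit the log2 fold change was −1.25 (SE 0.70, 95% interval −2.89 to 0.39, adjusted p = 0.204 by edgeR QL). Without *panx1a*-/- replicate 2 it was −2.51 (SE 0.45, adjusted p = 0.0119), and without another library the adjusted p lay up to 0.429.

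**Figure D2:**
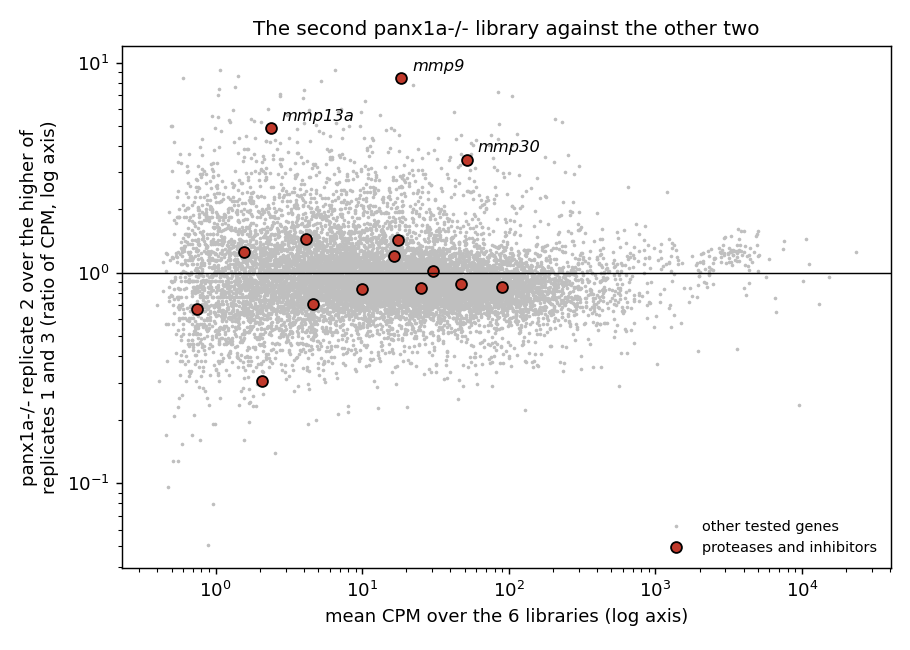
Ratio of the CPM in *panx1a*-/- replicate 2 to the higher of replicates 1 and 3 (log axis), plotted against the mean CPM over the 6 libraries (log axis), with 1 grey point per tested gene and the 15 protease and inhibitor genes in red. *mmp9* lies at a ratio of 8.41, *mmp13a* at 4.88 and *mmp30* at 3.45, while the median of all tested genes is 0.903.

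The position of *panx1a*-/- replicate 2 was set against all tested genes, a comparison chosen after the values were seen. Its level of *mmp9* was 8.41 times the higher of the other two *panx1a*-/- libraries, a ratio reached by 4 of 12791 genes including *mmp9* itself. For *mmp13a* the ratio was 4.88 (0.360% of genes as high) and for *mmp30* 3.45 (1.11% of genes as high). The median ratio of all genes was 0.903. With the higher of the other *panx1a*-/- libraries as divisor, this median cannot show whether the library was shifted across genes. The coefficient of variation between the *panx1a*-/- libraries was 130% for *mmp9*, 108% for *mmp13a* and 103% for *mmp30*, beside a median of 16.4% over all tested genes. Between the TL libraries it was 17.5%, 33.6% and 20.1% for the same genes, beside a median of 19.8%.

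Leukocyte and epidermal markers differed between these libraries too. The summed level of 12 neutrophil and macrophage markers was 67.0, 106 and 64.7 CPM in the *panx1a*-/- libraries and 113, 103 and 86.0 CPM in the TL libraries, so *panx1a*-/- replicate 2 was the highest of its genotype but within the TL range. Of the 11 tested, 1 was called lower (9.09%, beside 11.8% of all genes tested), *csf1ra*, a macrophage growth factor receptor. The neutrophil marker *lyz* had 0 counts in every library and so added nothing to the summed level. Whether the counting could assign reads to *lyz* could not be checked here. The gene of neutrophil myeloperoxidase, *mpx*, lay at 1.97, 2.82 and 1.67 CPM in the *panx1a*-/- libraries and 3.82, 5.02 and 2.63 CPM in the TL libraries. In *panx1a*-/- replicate 2, *lect2l*, *spi1b*, *cxcr4b* and *srgn* lay above every TL library, at 6.27, 9.30, 9.51 and 38.8 CPM. Their highest TL values were 4.65, 6.53, 7.65 and 34.6 CPM. In the same library *mpx*, *cd74a*, *cd74b* and *coro1a* lay within the TL range, and *csf1ra*, *mpeg1.1* and *lcp1* lay below it. The epidermal markers summed to 2485, 8041 and 6603 CPM in the *panx1a*-/- libraries, a sum made up mostly of keratins. Of these markers, 9 of the 12 were highest of their genotype in replicate 2. Among all tested genes, 33.3% reached 1.02 times the higher of the other *panx1a*-/- libraries there, so at least that share was highest in replicate 2. The epithelial adhesion gene *epcam* had 10.6, 105 and 25.9 CPM in the *panx1a*-/- libraries and 78.1, 135 and 84.2 CPM in the TL libraries. The basal epidermal factor gene *tp63* had 7.59, 42.8 and 13.6 CPM in the *panx1a*-/- libraries and 41.6, 56.6 and 43.8 CPM in the TL libraries. In both, as in *mmp30*, *panx1a*-/- replicate 2 lay within the TL range and the other *panx1a*-/- libraries lay below it. Not all epidermal markers showed this. In the keratin genes *krt4* and *krt5*, *panx1a*-/- replicate 2 had 1748 and 965 CPM, below every TL library (lowest 4191 and 2518 CPM). Its epidermal sum of 8041 CPM was also below every TL sum, the lowest being 18892 CPM. The part of these cells in the MMP values was not tested.

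*mmp2* codes for gelatinase A, which is made mainly by connective tissue cells. Its levels were 12.5, 17.9 and 10.8 CPM in the *panx1a*-/- libraries, against 18.4, 24.4 and 21.3 CPM in the TL libraries. Every *panx1a*-/- library lay below every TL library, though *panx1a*-/- replicate 2 came within 1 CPM of TL replicate 1. Its log2 fold change was −0.64 (SE 0.22, 95% interval −1.15 to −0.13) with an adjusted p of 0.0679 by edgeR QL. It passed the threshold without *panx1a*-/- replicate 2 (log2 fold change −0.87, adjusted p = 0.0222) and in the fit blocked by replicate number (log2 fold change −0.66, adjusted p = 0.0338), and with another library left out the adjusted p ranged from 0.0507 to 0.204. When the percentage of reads off genes entered the model, the log2 fold change was 0.055 (SE 0.33, adjusted p = 0.999 by edgeR QL). That fit called 0% of all genes higher and 0.00781% lower. Of 11 tested fibroblast and fin markers 5 were called lower, beside 11.8% of all genes tested. These markers summed to 433, 799 and 606 CPM in the *panx1a*-/- libraries and to 1044, 2369 and 1794 CPM in the TL libraries. Their part in the *mmp2* values was not tested.

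The membrane-type protease gene *mmp14a*, whose mammalian counterpart activates the MMP2 precursor at the cell surface, had 15.4, 18.4 and 10.6 CPM in the *panx1a*-/- libraries and 18.5, 18.9 and 16.8 CPM in the TL libraries. The groups overlapped, with *panx1a*-/- replicate 3 the lowest library. The fitted log2 fold change was −0.28 (95% interval −0.78 to 0.22, adjusted p = 0.330 by edgeR QL). Its paralog *mmp14b* had 0 counts in all 6 libraries, which allows 3 counts, or between 0.155 and 0.209 CPM in a library. Whether the annotation used for counting let reads be assigned to it could not be checked here, so the 0 is no firm limit on its expression.

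*mmp23bb*, whose mammalian counterpart is anchored by its amino-terminal end, had 8.17, 9.09 and 10.9 CPM in the *panx1a*-/- libraries and 7.54, 12.03 and 12.03 CPM in the TL libraries. All 3 *panx1a*-/- values lay inside the TL range, and the log2 fold change was −0.17 (95% interval −0.71 to 0.38). *mmp21*, known from the setting of the left-right body axis, was too low to be tested, with 4, 9 and 4 counts in the *panx1a*-/- libraries and 15, 13 and 9 counts in the TL libraries. In a fit without a filter its log2 fold change was −1.01 (adjusted p = 0.143 by edgeR QL).

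**Figure D3:**
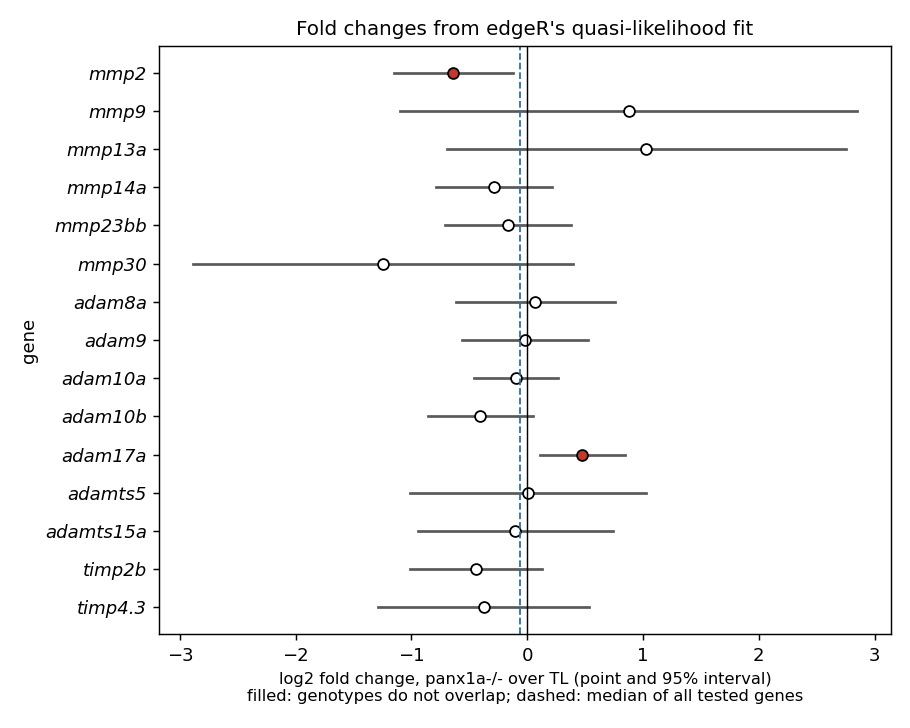
Log2 fold change of *panx1a*-/- over TL for the 15 tested genes, with points for the edgeR QL estimate (filled where the genotypes did not overlap), lines for the 95% interval and a dashed line at the median of all tested genes. The intervals of *mmp2* (−1.15 to −0.13) and *adam17a* (0.11 to 0.84) lie on 1 side of 0 before adjustment over all genes, and those of *mmp9*, *mmp13a* and *mmp30* are the widest.

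Among the ADAM proteases, *adam17a* was the gene nearest to the threshold. ADAM17 is the sheddase that releases tumor necrosis factor and several ligands of the epidermal growth factor receptor. Its levels were 57.5, 50.7 and 55.5 CPM in the *panx1a*-/- libraries, against 44.2, 33.7 and 39.7 CPM in the TL libraries. All 3 *panx1a*-/- libraries lay above all 3 TL libraries, and the means of 54.6 ± 3.45 CPM in *panx1a*-/- larvae and 39.2 ± 5.28 CPM in TL larvae (SD, n = 3 each) stood at a ratio of 1.39. In the fit the log2 fold change was 0.48 (SE 0.16, 95% interval 0.11 to 0.84) with an adjusted p of 0.0614 by edgeR QL. DESeq2 gave an adjusted p of 0.0412, and the quasi-likelihood test without TL replicate 1 gave 0.0263. With another library left out the adjusted p ranged from 0.0622 to 0.176, while the log2 fold change stayed between 0.37 and 0.53. When the percentage of reads off genes entered the model, the log2 fold change was 0.17 (SE 0.26, adjusted p = 0.999 by edgeR QL), in the fit that called 0% of all genes higher.

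*adam10a* and *adam10b* are paralogs of ADAM10, the protease that cuts a Notch receptor once its ligand has bound. *adam10a* had 89.3, 78.9 and 91.8 CPM in the *panx1a*-/- libraries and 88.3, 92.1 and 97.9 CPM in the TL libraries. Its coefficient of variation was 7.92% between *panx1a*-/- libraries and 5.21% between TL libraries, and the log2 fold change of −0.10 had a 95% interval from −0.46 to 0.26. *adam10b* had 26.1, 22.05 and 17.2 CPM in the *panx1a*-/- libraries and 24.7, 29.4 and 32.5 CPM in the TL libraries. Only *panx1a*-/- replicate 1 and TL replicate 1 crossed between the groups, and the log2 fold change was −0.40 (95% interval −0.86 to 0.05, adjusted p = 0.146 by edgeR QL).

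The remaining ADAM genes had fewer reads and overlapped between the genotypes. *adam9*, a sheddase gene that RefSeq lists as *adam9a*, had 4.12, 4.04 and 5.70 CPM in the *panx1a*-/- libraries and 5.19, 4.11 and 4.70 CPM in the TL libraries, with a log2 fold change of −0.019 (95% interval −0.56 to 0.52). *adam8a*, whose mammalian counterpart is found on leukocytes, had 1.33, 1.91 and 1.53 CPM in the *panx1a*-/- libraries and 1.26, 1.81 and 1.497 CPM in the TL libraries, with a log2 fold change of 0.070 (95% interval −0.62 to 0.76). In *panx1a*-/- replicate 2, *adam8a* was 1.25 times the higher of the other two libraries of its genotype, a ratio that 16.8% of genes reached. *adam28* had 0 counts in all 6 libraries, with the same doubt as for *mmp14b*.

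The ADAMTS genes had few reads. *adamts5*, an aggrecan-cutting protease, had 57, 19 and 28 counts in the *panx1a*-/- libraries and 48, 25 and 40 counts in the TL libraries, or 3.30, 1.01 and 1.95 CPM in the *panx1a*-/- libraries against 2.62, 1.51 and 2.07 CPM in the TL libraries. Here *panx1a*-/- replicate 2 was the lowest library. Its log2 fold change was 0.0077 (95% interval −1.01 to 1.02), and its sign depended on the setting. *adamts15a*, of the same proteoglycan-cutting branch, had between 10 and 15 counts in the *panx1a*-/- libraries and between 10 and 19 in the TL libraries (log2 fold change −0.10, 95% interval −0.95 to 0.74).

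The other 3 ADAMTS genes did not pass the filter on low counts. *adamts3*, whose mammalian counterpart processes procollagen and the lymphatic growth factor VEGFC, had 6, 8 and 7 counts in the *panx1a*-/- libraries and 14, 25 and 9 counts in the TL libraries. These groups did not overlap in counts, but after scaling to CPM they did, at 0.348, 0.425 and 0.487 CPM in the *panx1a*-/- libraries against 0.765, 1.51 and 0.465 CPM in the TL libraries. In a fit without a filter the log2 fold change was −1.09 (adjusted p = 0.146 by edgeR QL). *adamts10*, which in humans is tied to fibrillin microfibrils, had 4, 7 and 4 counts in the *panx1a*-/- libraries and 5, 9 and 15 counts in the TL libraries, and *adamts9* had 1, 7 and 6 counts in the *panx1a*-/- libraries against 13, 4 and 13 counts in the TL libraries. Neither was called, with an adjusted p of 0.267 for *adamts10* and 0.307 for *adamts9* in the fit without a filter (edgeR QL).

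Of the 4 TIMP genes, *timp4.3* had the most reads. It had 23.2, 28.2 and 27.5 CPM in the *panx1a*-/- libraries, against 14.5, 48.8 and 39.0 CPM in the TL libraries. All 3 *panx1a*-/- libraries lay inside the TL range, and TL replicate 1 lay far below the other two TL libraries. The coefficient of variation was 10.3% between the *panx1a*-/- libraries and 51.7% between the TL libraries. The fitted log2 fold change was −0.38 (SE 0.39, 95% interval −1.28 to 0.53, adjusted p = 0.474 by edgeR QL), and without TL replicate 1 it was −0.73 (SE 0.17, adjusted p = 0.0177). With another library left out the adjusted p lay between 0.488 and 0.959.

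*timp2b*, a paralog of TIMP2, which in mammals both inhibits MMP2 and helps MMP14 to activate it, had 3.07, 4.46 and 2.92 CPM in the *panx1a*-/- libraries and 4.32, 5.14 and 4.80 CPM in the TL libraries. Only *panx1a*-/- replicate 2 reached into the TL range. In the fit the log2 fold change was −0.44 (95% interval −1.01 to 0.13, adjusted p = 0.200 by edgeR QL). *timp4.2* had 2, 2 and 4 counts in the *panx1a*-/- libraries and 0, 3 and 2 counts in the TL libraries, at or near the limit of 3 counts. RefSeq places no protein-coding gene between *timp4.2* and *timp4.3*, and reads of such neighbouring copies may have been split or dropped when the authors counted them, which leaves each value uncertain. *timp2a* had 0 counts in all 6 libraries. With *mmp14b* and *adam28* this made 3 of 23 genes without a read, or 13.04%, against 5.78% of all genes listed, and these may be genes to which the counting could assign no reads.

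**Figure D4:**
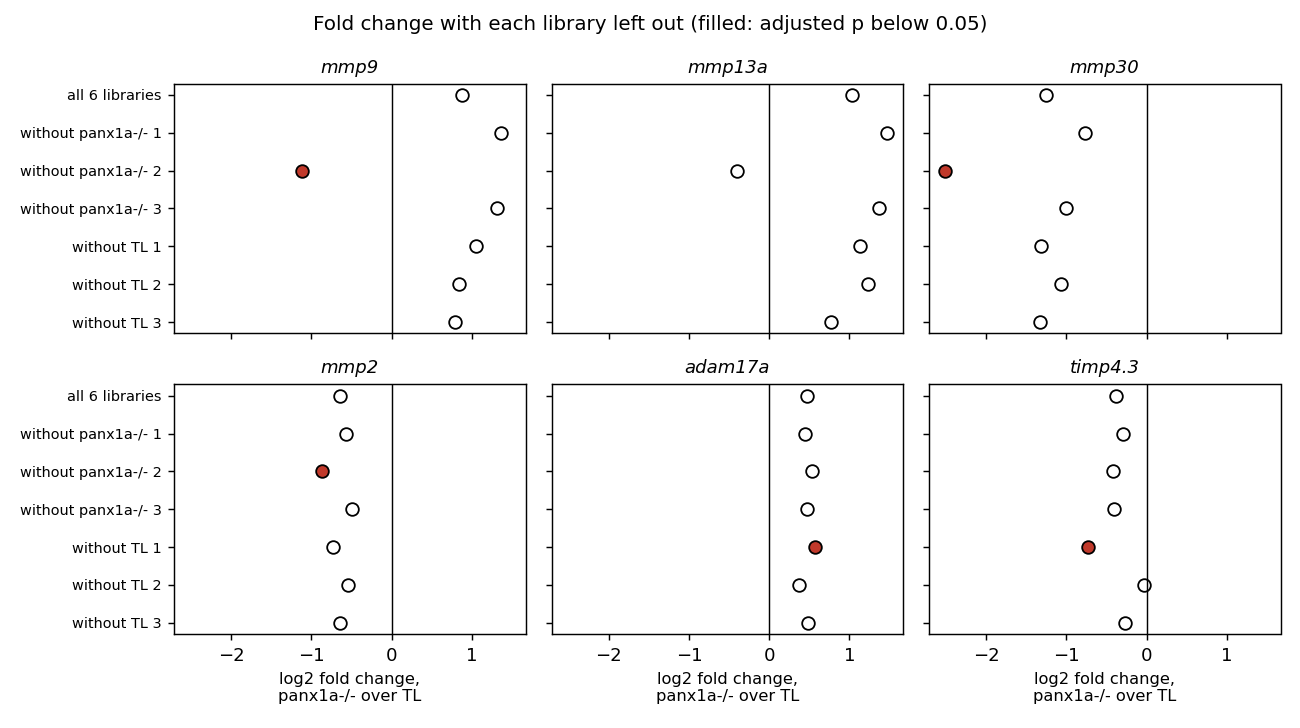
Log2 fold change of *panx1a*-/- over TL for 6 genes with all 6 libraries and with each library left out, filled where the adjusted p by edgeR QL was below 0.05. Without *panx1a*-/- replicate 2, *mmp9* lies at −1.11, *mmp30* at −2.51 and *mmp2* at −0.87, and all 3 are filled. Without TL replicate 1, *adam17a* at 0.58 and *timp4.3* at −0.73 are filled.

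The calls with a library left out came from different libraries. Without *panx1a*-/- replicate 2, 3 of the 18 genes then tested were called lower, *mmp2*, *mmp9* and *mmp30*, in a fit that called 16% of all genes lower. Without TL replicate 1, 1 of 15 was called higher (*adam17a*) and 1 lower (*timp4.3*), in a fit that called 18.5% of all genes higher and 17.9% lower. These counts were near or under the shares of all genes. Without any of the other 4 libraries 0 of the genes tested were called in either direction, in fits that called few genes at all. Over all genes, 0.0385% were called higher and 0.108% lower without *panx1a*-/- replicate 1, 0.0231% and 0.00771% without *panx1a*-/- replicate 3, 0.294% and 0.805% without TL replicate 2, and 0.00776% and 0.0155% without TL replicate 3. None of the 23 genes lies on the chromosome of *panx1a* in RefSeq.

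Other genes of matrix proteolysis were counted in 5 lists written from symbols. Of their 104 tested genes, 5 were called higher (4.81%, against 9.88% of all genes tested) and 21 lower (20.2%, against 11.8%). Without *panx1a*-/- replicate 1, *panx1a*-/- replicate 3 or TL replicate 3 both counts were 0, and without TL replicate 2 they were 1 and 1. Both were also 0 when the percentage of reads off genes entered the model, in a fit that called 0% of all genes higher and 0.00781% lower. That percentage did not overlap between the genotypes, so the fit cannot separate it from genotype.

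Of 10 tested convertases and genes of the plasminogen system, serpins included, 2 were called higher and 1 lower, beside 9.88% and 11.8% of all genes tested. The median log2 fold change of these 10 was −0.30. Furin cleaves the precursors of membrane-type MMPs and ADAMs. Of its zebrafish paralogs, *furinb* rose, at 186, 141 and 160 CPM in the *panx1a*-/- libraries against 59.11, 45.04 and 35.9 CPM in the TL libraries (log2 fold change 1.80, SE 0.23, adjusted p = 0.0221 by edgeR QL). The other paralog, *furina*, fell, at 2.15, 2.50 and 2.71 CPM in the *panx1a*-/- libraries against 3.66, 6.59 and 7.28 CPM in the TL libraries (log2 fold change −1.25, adjusted p = 0.0347 by edgeR QL). *plaub*, a paralog of the plasminogen activator urokinase, rose with a log2 fold change of 1.39 (adjusted p = 0.0289).

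Of 11 tested further inhibitors, partners of ADAMs and pappalysins (metalloproteases, 2 of the 11), 1 was called higher and 2 lower. The shares of all genes tested were 9.88% and 11.8%. The median log2 fold change of these 11 was −0.23. *spock3*, a testican gene whose human product is known to inhibit membrane-type MMPs, rose, at 471, 268 and 460 CPM in the *panx1a*-/- libraries against 225, 130 and 168 CPM in the TL libraries (log2 fold change 1.20, adjusted p = 0.0356 by edgeR QL). Testicans are also abundant in brain. Of 12 neuronal and glial markers 3 were called higher and 1 lower, beside 9.88% and 11.8% of all genes tested. These markers summed to 3479, 2685 and 4374 CPM in the *panx1a*-/- libraries and 2708, 1356 and 1972 CPM in the TL libraries. The part of neural tissue in the *spock3* values was not tested. *tspan14* and *tspan5b*, of the tetraspanins that carry ADAM10 to the cell surface, fell by 1.43 and 1.22 on the log2 scale (adjusted p = 0.0264 and 0.0353 by edgeR QL). The other tested tetraspanins of the list were not called. Their log2 fold changes were 0.46 for *tspan5a*, −0.49 for *tspan17* and −1.17 for *tspan33a* (adjusted p = 0.195, 0.157 and 0.0521 by edgeR QL).

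Of 24 tested other proteases and matrix enzymes, 5 were called lower and 0 higher, beside 11.8% and 9.88% of all genes tested. The median log2 fold change of these 24 was −0.25. An unadjusted p-value below 0.05 was found for 9 of them, beside 5586 of all 12797 genes tested. The list held astacins, cathepsins, heparanase and a hyaluronidase, and also 5 lysyl oxidases, which cross-link matrix, and peptidases that do not act on matrix, such as endothelin-converting enzymes. Those called lower were *hpse*, *ctsl.1*, the meprin genes *mep1a.1* and *mep1a.2*, and *ece1*, which codes for an endothelin-converting enzyme. *hpse*, the gene for heparanase, had 10.03, 10.2 and 10.6 CPM in the *panx1a*-/- libraries against 17.2, 32.6 and 26.6 CPM in the TL libraries (log2 fold change −1.31, adjusted p = 0.0279 by edgeR QL). *ctsl.1*, a cathepsin L gene, had 51.6, 177 and 81.6 CPM in the *panx1a*-/- libraries against 268, 566 and 510 CPM in the TL libraries (log2 fold change −2.11, adjusted p = 0.0336). In both genes the groups did not overlap, and *ctsl.1* was highest among the *panx1a*-/- libraries in replicate 2.

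Of 24 tested matrix proteins that these enzymes cut or that surround them, 8 were called lower (33.3%) and 0 higher. The shares of all genes tested were 11.8% and 9.88%. The median log2 fold change of these 24 was −0.53. Of the same 24, 9 had an unadjusted p-value below 0.05, beside 5586 of all 12797 genes tested. Lumican, coded by *lum*, spaces collagen fibrils, and its gene had 3.83, 3.77 and 4.31 CPM in the *panx1a*-/- libraries against 6.77, 15.4 and 14.5 CPM in the TL libraries (log2 fold change −1.62, adjusted p = 0.0279 by edgeR QL). *epyc*, the gene for the cartilage proteoglycan epiphycan, had 10.03, 9.83 and 7.58 CPM in the *panx1a*-/- libraries against 14.7, 32.6 and 27.1 CPM in the TL libraries (log2 fold change −1.44, adjusted p = 0.0298). Cartilage and bone markers, of which *matn1* is also in this list, were called lower in 5 of 10 tested cases, beside 11.8% of all genes. Their sums were 100, 92.7 and 75.1 CPM in the *panx1a*-/- libraries and 119, 230 and 213 CPM in the TL libraries. The part of these tissues in the matrix genes was not tested.

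Of 35 tested membrane proteins that ADAMs release, their ligands and receptors, 2 were called higher (5.71%) and 5 lower (14.3%). The shares of all genes tested were 9.88% and 11.8%. The median log2 fold change of these 35 was −0.45. With library size only, 0 were called in either direction, beside 8.02% of all genes higher and 4.74% lower. DESeq2 called 5 higher and 9 lower, beside 15.3% and 16.1% of all genes. Without *panx1a*-/- replicate 1, *panx1a*-/- replicate 3 or TL replicate 3, 0 were called in either direction. Without TL replicate 2, 0 were called higher and 1 lower. Those 4 fits called 0.00776% to 0.294% of all genes higher and 0.00771% to 0.805% lower. The Notch counts below are parts of this list, not lists of their own. Of 8 tested Notch ligand genes, 2 were called higher and 1 lower, beside 9.88% and 11.8% of all genes tested. Of these, *dll4* and *dla* rose, with log2 fold changes of 0.71 and 0.93 (adjusted p = 0.0362 and 0.0466 by edgeR QL), while *jag1b* fell by 0.72 (adjusted p = 0.0395). Of 4 tested Notch receptor genes 3 were called lower, beside 11.8% of all genes tested. Of these, *notch3* and *notch1b* fell by 1.27 and 1.33 on the log2 scale (adjusted p = 0.0312 and 0.0380 by edgeR QL). *notch3* had 6.03, 10.7 and 7.51 CPM in the *panx1a*-/- libraries against 19.1, 14.3 and 24.99 CPM in the TL libraries, with no overlap. *adam10a* and *adam10b*, which act on these receptors, were not called, as described above.

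**Figure D5:**
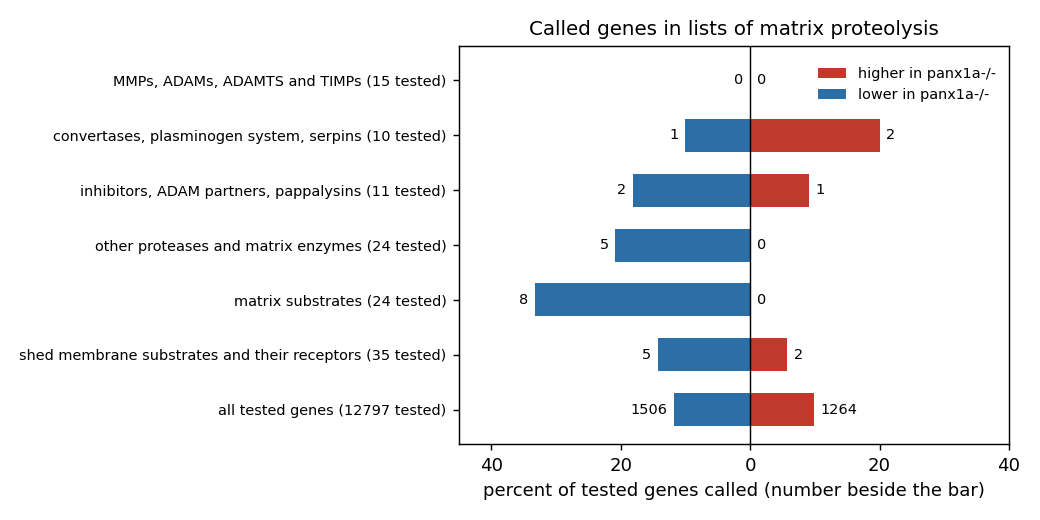
Percent of tested genes called higher (red, to the right) or lower (blue, to the left) in *panx1a*-/- larvae by edgeR QL, for the 15 protease and inhibitor genes, the 5 further lists and all tested genes, with the number of genes beside each bar. The protease and inhibitor genes have 0 on both sides, while the matrix substrates reach 33.3% lower, beside 11.8% of all genes.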

How the data were processed

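Directional libraries of total RNA from whole larvae were sequenced from both ends. Each file that the authors deposited holds unnormalized counts per gene for 1 library. The submitters' processing notes name bcl2fastq 2.17, FastQC 0.11.2, Trim Galore 0.4.4, TopHat2 2.0.11, HTSeq 0.6.1p2 and the build danRer11. The annotation and strand setting are not given in the sources used here, so reads of overlapping or antisense genes cannot be told apart. Each file lists 15336 genes and 5 rows of unassigned reads, which stayed out of library sizes and tests (reads outside annotated genes were 30.2% to 59.4% of uniquely aligned reads).

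Counts were filtered by edgeR's default (12797 genes), scaled with TMM factors and compared by the quasi-likelihood (QL) test of edgeR with genotype as the only factor and Benjamini-Hochberg adjustment over all genes (R 4.3.3, edgeR 4.0.16, limma 3.58.1, DESeq2 1.42.0, Python 3.11.15). The standard error is the size of the log2 fold change divided by the square root of F. Intervals and the limit of 3 counts use this fit and the library sizes, and the limit covers counting error only.

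The genes, lists and tests were chosen with earlier results of these data known. Named in the text were called genes, the 2 of each class with the highest mean CPM, genes at an adjusted p up to 0.06, genes at or under 3 counts, all TIMPs and 10 set symbols, of which *adam17b* and *adamts13* were not analysed here. *mmp21*, *adam8a*, *adam9* and *adamts9* fall outside that rule and were named after their values were seen. From each further list, up to 2 called genes per direction with the lowest p were named. The leukocyte markers, *epcam*, *tp63*, *krt4*, *krt5*, *matn1*, *mep1a.1*, *mep1a.2*, *ece1*, *jag1b*, *tspan5a*, *tspan17* and *tspan33a* were named after their values were seen. Fits were tested on simulated counts. Alternatives were other scalings, filters and tests, the replicate number as a block, the percentage of reads off genes as a covariate, a stricter threshold and leaving out each library. RefSeq was used for names and gene order only, with 23 of 23 genes matched by symbol or synonym. No sequences are shown.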

Additional observations from a re-analysis of the deposited data

Results flagged for a closer look

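Reads that matched no gene, which enter the comparisons of protease genes only as a covariate in an alternative fit, were more frequent in every *panx1a*-/- library than in any TL library. Their lowest share was 48.4% among *panx1a*-/- larvae, while the highest among TL larvae was 42.9% of reads with a unique alignment.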

How the results depend on the processing

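The number of protease and inhibitor genes called stayed at 0 in both directions with RLE or upper-quartile factors, with library size only, with both other filters, edgeR's exact test, limma-voom, the covariate and the stricter threshold. Apart from the covariate and the stricter threshold, these settings called 6.83% to 13.3% of all genes higher and 4.74% to 17.5% lower. DESeq2 called 1 gene higher (*adam17a*) and the replicate block 1 lower (*mmp2*, log2 fold change −0.66, adjusted p = 0.0338 by edgeR QL). With a library left out, 0 to 1 genes were called higher and 0 to 3 lower, in fits that called 0.00776% to 18.5% of all genes higher and 0.00771% to 17.9% lower. DESeq2 called 15.3% of all genes higher and the block 16.7% lower. The fit with the covariate called 0% of all genes higher and 0.00781% lower. Deviations of same-numbered libraries correlated at r = 0.12, 0.30 and 0.078 across genes, and those of differently numbered libraries at −0.21 to 0.14. The same-numbered pairs were not above 0.1 in every case, so the numbers were not taken to pair the libraries. This does not settle whether the libraries were paired. Library size only moved the median log2 fold change of all genes by 0.23 relative to TMM, and upper-quartile factors by −0.11.

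Some fold changes turned sign. Those of *adam8a* and *adam9* were not followed over the alternatives, so nothing is said here on their signs. With library size only, the log2 fold change was 0.13 for *adam10a*, 0.12 for *adamts15a* and 0.086 for *mmp23bb*. With the percentage of reads off genes as a covariate it was 0.17 for *adam10b*, 0.12 for *mmp14a*, 0.055 for *mmp2*, 0.24 for *mmp23bb*, 0.071 for *timp2b*, 1.15 for *timp4.3* and −0.73 for *adamts5*, all at an adjusted p of 0.999. For *adamts5* it was −0.10 with upper-quartile factors, −0.021 with at least 10 counts in every library, −0.13 with limma-voom, −0.069 with the replicate block, −0.50 without *panx1a*-/- replicate 1 and −0.18 without TL replicate 2. For *adamts15a* it was 0.036 without *panx1a*-/- replicate 2 and 0.12 without TL replicate 3. With each library left out in turn, the log2 fold change ranged between −0.50 and 0.35 for *adamts5*, −0.27 and 0.12 for *adamts15a*, −0.40 and 1.47 for *mmp13a*, and −1.11 and 1.36 for *mmp9*. *mmp9* lay at −0.028 with the replicate block and at −1.11 without *panx1a*-/- replicate 2, where *mmp13a* lay at −0.40. DESeq2 gave no adjusted p for *mmp9*. The cause of these turns was not tested.

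Of the 104 other genes of matrix proteolysis, 3 were called higher and 8 lower with library size only. With DESeq2 9 were called higher and 27 lower, and with the replicate block 8 higher and 31 lower. The counts were 0 and 0 with the covariate, and 1 and 0 at the stricter threshold (unadjusted p-value below 0.0001 as well). The share of all genes at the stricter threshold is not given here, so those counts cannot be set against it. Over all genes, library size only called 8.02% higher and 4.74% lower. DESeq2 called 15.3% higher and 16.1% lower, the block 13.6% higher and 16.7% lower, and the covariate fit 0% higher and 0.00781% lower. With a library left out, 0 to 9 were called higher and 0 to 29 lower. Those fits called 0.00776% to 18.5% of all genes higher and 0.00771% to 17.9% lower.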

Other observations

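*mmp9* had the largest ratio of *panx1a*-/- replicate 2 to the higher of the other two *panx1a*-/- libraries among 7429 tested genes with a mean of at least 10 CPM, at 8.41, a ranking made after the values were seen. Of the 12 genes with the largest ratios, 7 were higher in this library than in every TL library, 4 lay within the TL range and 1 lay below it. These genes were chosen for a high value in this library, and the matching shares of all genes are not given here. Among the 7, *irg1l* had 2.67, 50.6 and 6.47 CPM in the *panx1a*-/- libraries and 38.1, 19.0 and 16.1 CPM in the TL libraries, and *cebpb*, a transcription factor gene, had 73.8, 402 and 74.7 CPM in the *panx1a*-/- libraries and 339, 205 and 149 CPM in the TL libraries. Within the TL range, *rhcga*, an ammonium transporter gene, had 36.6, 317 and 60.8 CPM in the *panx1a*-/- libraries and 436, 296 and 239.9 CPM in the TL libraries. Below it, *krt1-c5*, a keratin gene, had 0.986, 11.4 and 1.74 CPM in the *panx1a*-/- libraries and 13.7, 21.1 and 13.3 CPM in the TL libraries. In *panx1a*-/- replicate 2, *mmp9* was 3.81 times and *mmp13a* 3.57 times the highest TL library, while *mmp30* was 0.739 times it. None of the 12 genes was called by edgeR QL, with adjusted p-values between 0.126 for *krt1-c5* and 0.942 for *dhrs13a.2*.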
